A study of Homo sapiens with 6 samples.

Results

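Aminoacyl-tRNA synthetases join each amino acid to its tRNA, and 38 genes of this family were examined in HK-2 cells treated with TEPP-46. The genes were taken from the expression table by Ensembl identifier from a list of symbols, and all 38 were found among its 29483 genes. They comprised 19 cytosolic enzyme genes, 3 scaffold genes of the multisynthetase complex (*AIMP1*, *AIMP2*, and *EEF1E1*) and 16 mitochondrial enzyme genes. Of the cytosolic enzymes, 13 are known targets of the transcription factor ATF4 (*AARS1*, *CARS1*, *EPRS1*, *GARS1*, *IARS1*, *LARS1*, *MARS1*, *NARS1*, *SARS1*, *TARS1*, *VARS1*, *WARS1*, and *YARS1*), and the other 6 were *FARSA*, *FARSB*, *HARS1*, *KARS1*, *QARS1*, and *RARS1*. *GARS1* and *KARS1* each encode both the cytosolic and the mitochondrial form of their enzyme and were kept with the cytosolic enzymes.

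RNA was sequenced from 3 control and 3 case replicates of HK-2 cells, an immortalized line labelled as human renal proximal tubular epithelium. Cells of both groups spent 7 days in high D-glucose (HG) at 25 mM. A further 1 day in HG followed for both, with 10 μM TEPP-46 for the case group and none for the control group. TEPP-46 is an activator of pyruvate kinase M2 that stabilizes its tetramer. No group in normal glucose was among the 6 libraries, so each comparison concerns TEPP-46 within HG. All replicates came from 1 cell line, and *P*-values measure the spread between these replicates only. Most of the proximal tubule marker genes in the table, 10 in number, were at or near 0, among them *LRP2*, *SLC5A1*, *SLC34A1*, and *CUBN*, with values of at most 0.0862 FPKM in any library. The highest of the 10 reached 0.206 FPKM (*GGT1*). Epithelial keratins were abundant, with *KRT7*, *KRT8*, *KRT18*, and *KRT19* between 158.0 and 407.2 FPKM. *CDH1*, the epithelial cadherin, was 3.25, 3.39, and 3.28 scaled FPKM in the control group and 1.94, 2.30, and 2.04 in the case group, and it was a downregulated DE gene (log2 fold change -0.64, limma adjusted p = 0.0156). The other 5 epithelial markers, those 4 keratins and *EPCAM*, were not DE genes, with log2 fold changes from -0.27 (*KRT8*) and -0.14 (*KRT7*) to 0.02 (*KRT18* and *KRT19*) and 0.04 (*EPCAM*). Fibroblast and endothelial markers reached at most 0.35 and 0.0587 FPKM. The highest immune marker, *CD14*, reached 0.915 FPKM and was also downregulated, from 0.858, 0.601, and 0.883 to 0.303, 0.229, and 0.281 scaled FPKM (-1.24, limma adjusted p = 0.0384). The part of these shifts in the results below was not tested.

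Expression was measured as FPKM, a read count divided by gene length and by sequencing depth. The library totals by which counts had been divided, derived from the steps in which FPKM values fall, were 18634891, 17924033, and 17378710 reads for control replicates 1, 2, and 3. They were 16711934, 16047243, and 15363254 for case replicates 1, 2, and 3. The whole reads recovered per gene summed to 17343006 to 18596623 in the control libraries and 15329125 to 16674855 in the case libraries. Levels are given below as scaled FPKM, that is FPKM divided by a factor of each library between 0.944 and 1.036. Fold changes are on the scale of log2(scaled FPKM + 0.1), with limma as the test and an adjusted p of at most 0.05 as the threshold for a DE gene. In whole cultures, fewer cells of a kind and less RNA per cell cannot be told apart.

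In the charging reaction the synthetase first activates its amino acid with ATP and then transfers it to the 3′ end of the matching tRNA, which the elongation factor carries to the ribosome. Cytosolic and mitochondrial translation mostly use separate enzymes, both encoded in the nucleus. Several cytosolic enzymes are held together in the multisynthetase complex by the scaffold proteins. ATF4 is translated when the initiation factor eIF2 is phosphorylated under amino acid shortage or other stress. It raises transcription of genes for amino acid synthesis, amino acid uptake, and many cytosolic synthetases, and it often binds together with a C/EBP protein at a composite DNA element.

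Of the 9 members that were upregulated DE genes after TEPP-46, 7 were cytosolic synthetases known as ATF4 targets, and 6 of the 13 targets were not called. Positive log2 fold changes were found in 23 members, 10 of them ATF4 targets. The mitochondrial enzymes had no common direction. Of the 37 members with a mean of at least 0.5 FPKM, 9 were upregulated DE genes and 1 was a downregulated DE gene, which is 24.3% and 2.7% of them. The balance depended on the scaling between libraries, with 7 upregulated and 6 downregulated members for FPKM as deposited, 4 and 6 for TPM, and 5 and 4 after quantile normalization. Of all 13599 tested genes, 7.34% were upregulated and 5.84% were downregulated, 13.2% in either direction (998 and 794 genes, against 662 and 1124 for FPKM as deposited, 381 and 2383 for TPM, and 865 and 903 after quantile normalization). The upregulated members were *CARS1*, *GARS1*, *TARS1*, *SARS1*, *YARS1*, *MARS1*, and *WARS1* among the ATF4 targets, *RARS1* among the other cytosolic enzymes, and *RARS2* among the mitochondrial enzymes. *VARS2*, a mitochondrial enzyme, was downregulated. The log2 fold changes spanned -0.41 to 0.63. The 3 values of the case group lay above those of the control group for 14 members and below them for 6, and over all tested genes these shares were 19.5% and 20.4%, or 39.9% together. The median log2 fold change was 0.28 for the ATF4 targets, 0.14 for the other cytosolic enzymes, 0.27 for the scaffold genes, and -0.07 for the mitochondrial enzymes, beside 0.00 for all tested genes. The median of the mitochondrial enzymes was 0.00 without case replicate 1, -0.12 without case replicate 2, -0.14 for FPKM as deposited, and -0.26 for TPM, where all tested genes had medians of 0.00, 0.00, -0.08, and -0.20.

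**Figure D1:**
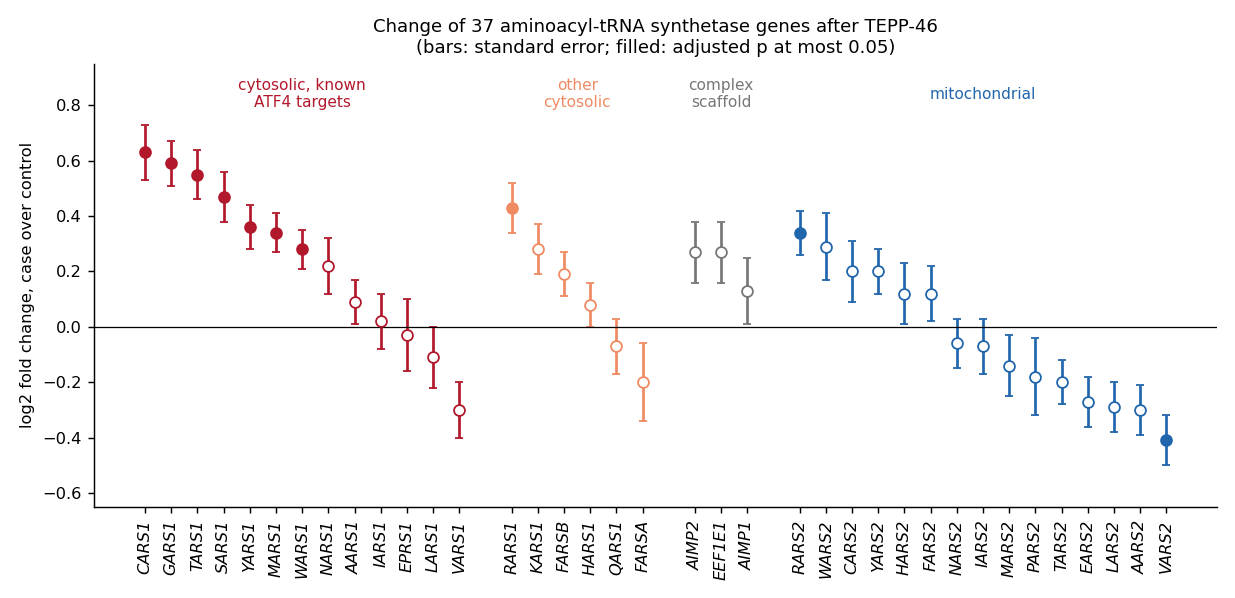
Log2 fold change of case over control (vertical axis) for the 37 tested members, ordered by size within the 4 groups. Points are limma estimates, bars are standard errors, and filled points passed the threshold: 7 of 13 ATF4 targets, 1 of 6 other cytosolic enzymes, 0 of 3 scaffold genes, and 2 of 15 mitochondrial enzymes, one in each direction.

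These calls rested on all 3 control libraries. Leaving out control replicate 1, 2, or 3 left no member past the threshold in limma, with 10 or 11 members higher and 3 to 5 lower at an unadjusted p of at most 0.05. Over all tested genes the same step reduced the upregulated DE genes from 998 to between 55 and 76, and the downregulated DE genes from 794 to between 14 and 29. Without case replicate 3, *GARS1* was the only member past the threshold, and 121 genes were upregulated and 71 downregulated in all. Over the 6 fits without 1 library, the log2 fold change of *GARS1* stayed between 0.55 and 0.63, that of *CARS1* between 0.56 and 0.73, and that of *VARS2* between -0.48 and -0.35. TPM moved the sizes more, and quantile normalization moved some of them more. Under TPM, which moved the median of all tested genes by -0.20, the log2 fold change was 0.43 for *CARS1*, 0.39 for *GARS1*, 0.35 for *TARS1*, 0.27 for *SARS1*, 0.24 for *RARS1*, 0.16 for *YARS1*, 0.14 for *MARS1* and *RARS2*, 0.08 for *WARS1*, and -0.61 for *VARS2*. After quantile normalization, which moved that median by -0.01, it was 0.39 for *GARS1*, 0.34 for *TARS1*, 0.32 for *RARS1*, and 0.31 for *SARS1*. It was 0.23 for *YARS1* and 0.16 for *MARS1* and *WARS1*. For *CARS1* (0.58), *RARS2* (0.30), and *VARS2* (-0.44) it stayed within the range of the fits without 1 library. Of 18 alternatives, *GARS1* passed the threshold in 15, *CARS1* and *SARS1* in 13, *TARS1* and *VARS2* in 12, *YARS1* in 11, *MARS1* and *RARS1* in 10, and *WARS1* and *RARS2* in 9. All 10 DE members kept their direction under each of the 18 alternative settings.

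*CARS1*, the cytosolic cysteinyl-tRNA synthetase (chr11:3000922-3057613, minus strand, GRCh38), had the largest fold change of the members. Its level was 11.3, 11.7, and 11.5 scaled FPKM in control replicates 1, 2, and 3, and 19.7, 15.6, and 18.5 in case replicates 1, 2, and 3. The groups did not overlap, and case replicate 1 was the highest. This was a log2 fold change of 0.63 with a standard error of 0.10 (limma, adjusted p = 0.0143). *GARS1*, the glycyl-tRNA synthetase of both compartments (chr7:30580533-30634033, plus strand), was 111.4, 115.7, and 104.8 in the control group and 158.3, 165.8, and 175.6 in the case group. All case values were well above the control values, and the spread was small in both groups. Its log2 fold change was 0.59 with a standard error of 0.08 (limma, adjusted p = 0.00923), and it held the smallest *P*-value of the members. *TARS1*, the cytosolic threonyl-tRNA synthetase (chr5:33440696-33468091, plus strand), rose from 118.3, 121.1, and 112.5 to 155.3, 174.3, and 188.1 scaled FPKM. The groups were apart, with case replicate 1 the lowest of its group. The log2 fold change was 0.55 with a standard error of 0.09 (limma, adjusted p = 0.0143).

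*SARS1*, the seryl-tRNA synthetase (chr1:109213918-109238182, plus strand), was nearly constant in the control group, at 70.8, 70.7, and 70.7 scaled FPKM, and was 109.0, 89.2, and 97.5 in the case group. All case values were higher, although they differed more among themselves than the control values did. The log2 fold change was 0.47 with a standard error of 0.09 (limma, adjusted p = 0.0189). *YARS1*, the tyrosyl-tRNA synthetase, rose from 41.7, 42.8, and 43.1 to 59.0, 51.9, and 52.9 (log2 fold change 0.36, limma adjusted p = 0.0266). *WARS1*, the tryptophanyl-tRNA synthetase and a well-known interferon-induced gene, rose from 31.7, 32.2, and 32.8 to 40.5, 38.5, and 38.7 (log2 fold change 0.28, limma adjusted p = 0.0377). Both were without overlap, and *WARS1* had the smallest fold change of the upregulated members.

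*MARS1*, the methionyl-tRNA synthetase, which also charges the initiator tRNA (chr12:57475445-57517569, plus strand), was 97.6, 94.4, and 92.2 scaled FPKM in the control group and 127.5, 116.7, and 116.4 in the case group. The groups did not overlap, and the log2 fold change was 0.34 with a standard error of 0.07 (limma, adjusted p = 0.0262). The call was lost under TPM (0.14, adjusted p = 0.128) and quantile normalization (0.16, adjusted p = 0.124). In the annotation *MARS1* shares 355 exon bases with *DDIT3*, an ATF4 target on the opposite strand. The strandedness of the libraries is not given in the sources used here, so reads of these bases may not be told apart. On the median-of-ratios scale, mean reads were higher by 3070 for *MARS1*, from 11405 to 14475, and by 557 for *DDIT3*, from 268 to 825. How many reads of the shared bases were counted for either gene was not tested.

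The other 6 ATF4 targets did not pass the threshold. *AARS1*, the alanyl-tRNA synthetase and the most abundant member, was 285.1, 291.5, and 279.1 scaled FPKM in the control group and 332.5, 295.2, and 284.5 in the case group. The groups overlapped because case replicates 2 and 3 lay within or close to the control range. *NARS1*, the asparaginyl-tRNA synthetase, was 48.9, 51.2, and 48.6 against 50, 63.4, and 60.9, with case replicate 1 alone inside the control range. Its log2 fold change of 0.22 (limma, adjusted p = 0.169) became 0.33 without case replicate 1 (adjusted p = 0.0199).

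*EPRS1*, which charges both glutamate and proline, *IARS1*, for isoleucine, and *LARS1*, for leucine and known as a leucine sensor, shared one pattern. The level of *EPRS1* was 67.7, 72.0, and 67.6 scaled FPKM in the control group and 53.9, 75.9, and 76.0 in the case group, so that case replicate 1 was the lowest library and the other 2 were the highest. *IARS1* was 54.9, 58.9, and 54.4 against 49.7, 62.6, and 58.6, and *LARS1* was 34.3, 36.4, and 34.0 against 27.6, 36.6, and 33.6. Case replicate 1 was the lowest of the 6 libraries in all 3 genes. Their log2 fold changes were -0.03, 0.02, and -0.11, and none of the 3 passed the threshold under any of the 18 alternatives.

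*VARS1*, the valyl-tRNA synthetase, was the only ATF4 target whose case values all lay below the control values, at 112.9, 87.9, and 90.5 against 120.7, 119.2, and 117.6 scaled FPKM. The log2 fold change was -0.30 with a standard error of 0.10 (limma, adjusted p = 0.0873). It passed the threshold as a lower gene in 6 of 18 alternatives, one of which left out case replicate 1 (-0.41, adjusted p = 0.0129).

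**Figure D2:**
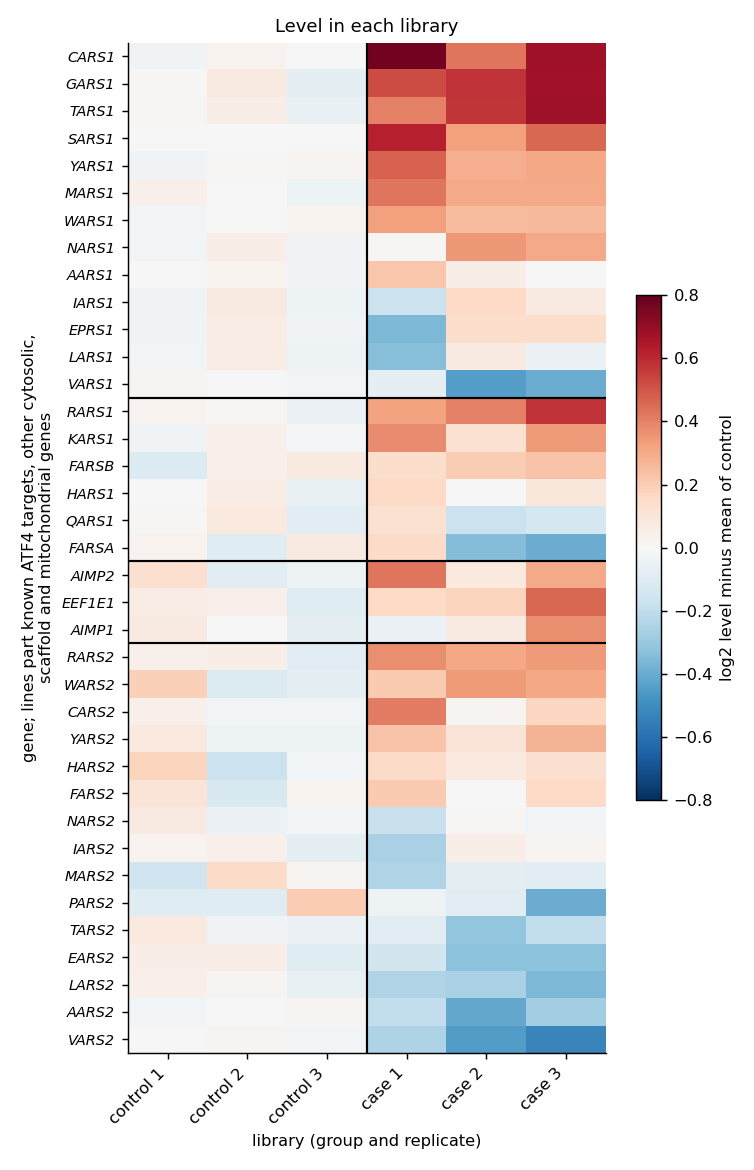
Level of each of the 37 tested members (rows, by group and fold change) in each of the 6 libraries (columns), as the log2 level minus the mean of the control group. Red is higher and blue is lower than control. *CARS1*, *GARS1*, and *TARS1* were raised in all 3 case libraries, whereas *EPRS1* and *LARS1* were lowest in case replicate 1.

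The promoters of the members were read for the core of the C/EBP-ATF composite element, because the ATF4 targets moved together in part. RefSeq windows (GRCh38.p14) from 250 bases before to 50 bases after a transcription start were matched by symbol for 33 of the 38 members, and *LARS1*, *VARS1*, *YARS1*, *AARS2*, and *VARS2* had no window. The 8 letters searched were TGATGNAA on both strands, and TGATGCAA is one of the forms it holds. Of 35116 windows 3.62% held TGATGNAA, and 0.866% held TGATGCAA. By gene, TGATGNAA stood in 4.46% of 27305 genes, and in 7 of the 10 ATF4 targets with a window, 0 of 6 other cytosolic enzymes, 0 of 3 scaffold genes, and 1 of 14 mitochondrial enzymes. The 28 bases around each match follow in the direction of transcription, 5′ to 3′, with the 8 matching letters in capitals, so that the shared core can be seen. TTGCATCA is TGATGCAA read on the other strand, and TTTCATCA and TGATGGAA are other forms of TGATGNAA.
CARS1: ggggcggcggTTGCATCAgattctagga
GARS1: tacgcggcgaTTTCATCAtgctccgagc
TARS1: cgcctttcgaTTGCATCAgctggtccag
MARS1: ccggttccggTTGCATCAgcgagggatt
AARS1: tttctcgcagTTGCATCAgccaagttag
IARS1: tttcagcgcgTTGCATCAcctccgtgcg
NARS1: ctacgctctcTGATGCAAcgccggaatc
YARS2: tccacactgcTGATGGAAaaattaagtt

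The windows lie at chr11:3057408-3057435 (minus strand) for *CARS1*, chr7:30594835-30594862 (plus) for *GARS1*, chr5:33440957-33440984 (plus) for *TARS1*, and chr12:57488054-57488081 (plus) for *MARS1*. Those of the remaining genes lie at chr16:70289676-70289703 (minus) for *AARS1*, chr9:92293693-92293720 (minus) for *IARS1*, chr18:57621805-57621832 (minus) for *NARS1*, and chr12:32756077-32756104 (minus) for *YARS2*. In *CARS1* and *MARS1* the 8 letters span the annotated start, in *TARS1* and *NARS1* they begin 3 and 15 bases into the transcript, and in *IARS1* and *GARS1* they begin 13 and 33 bases before it. In *AARS1* and *YARS2* they begin 187 and 197 bases before the start. Of the 7 ATF4 targets with a match, *CARS1*, *GARS1*, *TARS1*, and *MARS1* were upregulated DE genes, and *AARS1*, *IARS1*, and *NARS1* were not. *SARS1* and *WARS1* were upregulated with no match of these letters in their windows, and *EPRS1*, also without a match, was not a DE gene. The group was listed as known ATF4 targets, and ATF4 often binds at this element. Its share of matches is therefore not a result of these data. A match describes the sequence only, and binding was not measured.

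Among the 6 other cytosolic enzymes, *RARS1*, the arginyl-tRNA synthetase (chr5:168486451-168519301, plus strand), was the only DE gene. Its level was 29.9, 29.5, and 28.3 scaled FPKM in the control group and 36.5, 38.6, and 43.9 in the case group. The groups did not overlap, and the log2 fold change was 0.43 with a standard error of 0.09 (limma, adjusted p = 0.0228). A processed pseudogene, *RARS1P1*, has a row of its own in the table, and reads shared between such copies are uncertain. *KARS1*, the lysyl-tRNA synthetase of both compartments, was higher in each case replicate, at 79.9, 83.7, and 80.8 in the control group against 106.2, 88.6, and 103.2, but did not pass the threshold (log2 fold change 0.28, limma adjusted p = 0.0691). *FARSB* (0.19), *HARS1* (0.08), *QARS1* (-0.07), and *FARSA* (-0.20) are log2 fold changes below the threshold.

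*FARSA* and *FARSB* encode the catalytic α and the β subunit of the phenylalanyl-tRNA synthetase, and the libraries of the case group ordered them differently. *FARSA* was 74.0, 67.5, and 76.0 scaled FPKM in the control group and 80.3, 56.7, and 54.8 in the case group, where case replicate 1 was the highest of all 6 libraries and the other 2 were the lowest. *FARSB* was 21.7, 24.0, and 24.5 against 25.8, 26.9, and 27.5, without overlap. Without case replicate 1, the log2 fold change of *FARSA* was -0.37 (limma, adjusted p = 0.0227) instead of -0.20 (adjusted p = 0.365).

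The 3 scaffold genes all had positive log2 fold changes, of 0.13 for *AIMP1*, 0.27 for *AIMP2*, and 0.27 for *EEF1E1*. None passed the threshold in limma or in voom on recovered reads, and 2 and 1 of the 3 had an unadjusted p of at most 0.05 in these tests. *EEF1E1* was 4.98, 4.89, and 4.43 in the control group against 5.33, 5.41, and 6.59 scaled FPKM without overlap, *AIMP2* was 28.3, 24.3, and 25.2 against 34.9, 27.3, and 32.0, and *AIMP1* was 15.5, 14.7, and 14.1 against 14.3, 15.5, and 19.0. *AIMP2* and *AIMP1* overlapped between the groups. In the annotation 29.1% of the exon bases of *AIMP2* lie opposite *EIF2AK1*, a kinase of eIF2. With their partner enzymes *EPRS1*, *IARS1*, *KARS1*, *LARS1*, *MARS1*, *QARS1*, and *RARS1*, 2 of 10 genes of the complex were upregulated. Among the enzymes, 2 of 7 in the complex and 6 of 12 outside it were upregulated, with median log2 fold changes of 0.02 and 0.25. By catalytic fold, 6 of 18 class I enzymes were upregulated and 1 was downregulated, and 3 of 15 tested class II enzymes were upregulated. *EPRS1*, which charges 2 amino acids, was counted in neither class. Beside these counts by complex and by class, 7.34% of all tested genes were upregulated and 5.84% were downregulated.

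The mitochondrial enzymes split in both directions, with 6 positive and 9 negative log2 fold changes among 15 tested genes. *VARS2*, the mitochondrial valyl-tRNA synthetase (chr6:30914205-30926459, plus strand), was 13.9, 14.1, and 13.7 scaled FPKM in the control group and 11.7, 10.2, and 9.62 in the case group. The groups did not overlap, and it fell by 0.41 on the log2 scale with a standard error of 0.09 (limma, adjusted p = 0.0305). A long non-coding RNA gene on the same strand covers 63.0% of its exon bases in the annotation, and reads of the 2 genes may not be told apart. *RARS2*, the mitochondrial arginyl-tRNA synthetase (chr6:87513459-87590028, minus strand), was 11.2, 11.2, and 10.1 against 14.1, 13.4, and 13.7 without overlap. Its log2 fold change was 0.34 with a standard error of 0.08 (limma, adjusted p = 0.0338).

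Below the threshold, 4 further mitochondrial enzymes had all case values under all control values, and *WARS2* and *YARS2* had all case values above. With *VARS2* and *RARS2*, 5 of the 15 tested were lower without overlap and 3 were higher, beside 20.4% and 19.5% of all tested genes. *AARS2*, for alanine, was 11.8, 11.9, and 12.1 scaled FPKM in the control group and 10.4, 8.95, and 9.79 in the case group (log2 fold change -0.30, limma adjusted p = 0.0558). *LARS2*, for leucine, was 6.87, 6.77, and 6.39 against 5.62, 5.56, and 5.18 (-0.29, adjusted p = 0.0603). *EARS2*, which charges glutamate and also loads it on the tRNA for glutamine, and *TARS2*, for threonine, had log2 fold changes of -0.27 and -0.20. Of these 4 genes, *AARS2* passed the threshold in 7 of 18 alternatives, *LARS2* in 6, *EARS2* in 4, and *TARS2* in 4. With *VARS2*, 5 mitochondrial enzymes were downregulated DE genes with FPKM as deposited, with TPM, or with a correction for GC content. Of all 13599 tested genes, these settings gave 1124, 2383, and 1528 downregulated DE genes, beside 794 in the main fit. *WARS2* was 3.20, 2.58, and 2.66 against 3.25, 3.57, and 3.49, and *YARS2* was 14.8, 13.6, and 13.6 against 16.4, 15.0, and 16.8.

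The other mitochondrial enzymes overlapped between the groups. Their log2 fold changes were 0.20 for *CARS2*, 0.12 for *FARS2*, 0.12 for *HARS2*, -0.06 for *NARS2*, -0.07 for *IARS2*, -0.14 for *MARS2*, and -0.18 for *PARS2*. *IARS2*, the most abundant mitochondrial enzyme, followed *IARS1* in being lowest in case replicate 1, at 43.2 beside 53.6 and 52.5 in the other case replicates and 53.1, 53.2, and 49.4 in the control group. *SARS2*, for serine, was not tested, since it held 1 to 5 reads in each library and at most 0.0926 FPKM. In the annotation 48.2% of its exon bases are shared with another gene on the same strand, and whether this set its count was not tested. Transcripts encoded by the mitochondrial genome itself made up 11.21% to 11.32% of all FPKM in the 3 control libraries, and 13.21% to 14.68% in the 3 case libraries. Whether this share had a part in the values above was not tested.

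Cytosolic enzymes had higher FPKM than their mitochondrial partners in these cells. FPKM divides by the gene length that the authors used, which can be far from that of the canonical transcript, so an order of levels between genes depends on it. It was 8436 bases for *HARS1* and 10460 for *CARS2*, whose canonical transcripts have 1948 and 1838, and 1704 for *HARS2*, whose canonical transcript has 2468. In the control group the cytosolic enzymes ranged from 10.0 (*HARS1*) to 285.2 (*AARS1*) in mean scaled FPKM, and the tested mitochondrial enzymes from 2.81 (*WARS2*) to 51.9 (*IARS2*), with *TARS2* next at 30.4. Per canonical transcript length, a measure added after seeing the values, the ranges were 11.7 (*FARSB*) to 373 (*AARS1*) and 3.04 (*HARS2*) to 61.2 (*IARS2*). Summed over the 19 cytosolic enzymes, the level was 1350, 1375, and 1326 in the control group and 1600, 1530, and 1568 in the case group. The sum of the 16 mitochondrial enzymes was 192.3, 186.4, and 181.3 in the control group and 178.3, 176.9, and 180.8 in the case group. Neither pair of sums overlapped on this scale. As a share of all FPKM in a library, likewise added afterwards, the cytosolic sums did overlap, at 0.472%, 0.491%, and 0.465% in the control group and 0.466%, 0.499%, and 0.478% in the case group. The mitochondrial shares did not, at 0.067%, 0.067%, and 0.064% in the control group and 0.052%, 0.058%, and 0.055% in the case group.

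The ratio of the cytosolic to the mitochondrial enzyme for the same amino acid was formed for 14 pairs. A factor that scales a whole library leaves it unchanged. Quantile normalization is not such a factor, and ratios after it are not given here. For example, it moved the log2 fold change of *AARS1* from 0.09 to -0.16 and that of *AARS2* from -0.30 to -0.32. It moved *MARS1* from 0.34 to 0.16 and *MARS2* from -0.14 to -0.08. The serine pair rests on 1 to 5 reads of *SARS2*, so tallies are given for the other 13 pairs. The ratio was above 1 in every library for all 13, also per canonical transcript length, although that moved single ratios by up to 6.27 times (histidine). The length is the same in every library and has no part in the difference between groups. For 6 pairs, those for alanine, cysteine, isoleucine, methionine, asparagine, and threonine, the ratio was higher in every case library than in every control library, and for no pair was it lower in every case library. Of single tested genes, 39.9% had groups that did not overlap, and the share among ratios of other genes was not computed. The mean log2 ratio was higher in the case group for 10 of the 13 pairs. With 3 against 3 libraries, the two-sided exact permutation test cannot go below p = 0.1, which these 6 pairs reached (adjusted 0.217 over 13 pairs and 0.233 over 14 with serine), so none passed the threshold.

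*TARS1* over *TARS2* showed the largest shift, with ratios of 3.70, 4.07, and 3.84 in the control group and 5.47, 7.13, and 7.14 in the case group, a mean 1.69-fold as high. *MARS1* over *MARS2* was 20.7, 16.1, and 17.2 against 28.6, 23.1, and 23.5, and *CARS1* over *CARS2* was 2.40, 2.59, and 2.53 against 3.23, 3.35, and 3.59. *AARS1* over *AARS2* was 24.2, 24.4, and 23.1 against 31.9, 33.0, and 29.1, a mean 1.31-fold as high, although neither gene was a DE gene by itself. *IARS1* over *IARS2* was 1.03, 1.11, and 1.1 against 1.15, 1.17, and 1.12, and the mean of *NARS1* over *NARS2* was 1.22-fold as high in the case group. *RARS1* and *RARS2* both rose, and their ratio was 2.68, 2.63, and 2.79 against 2.59, 2.88, and 3.20, with overlap. *VARS1* and *VARS2* were both lower in the case group, and their ratio of 8.71, 8.43, and 8.59 against 9.67, 8.65, and 9.41 also overlapped.

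**Figure D3:**
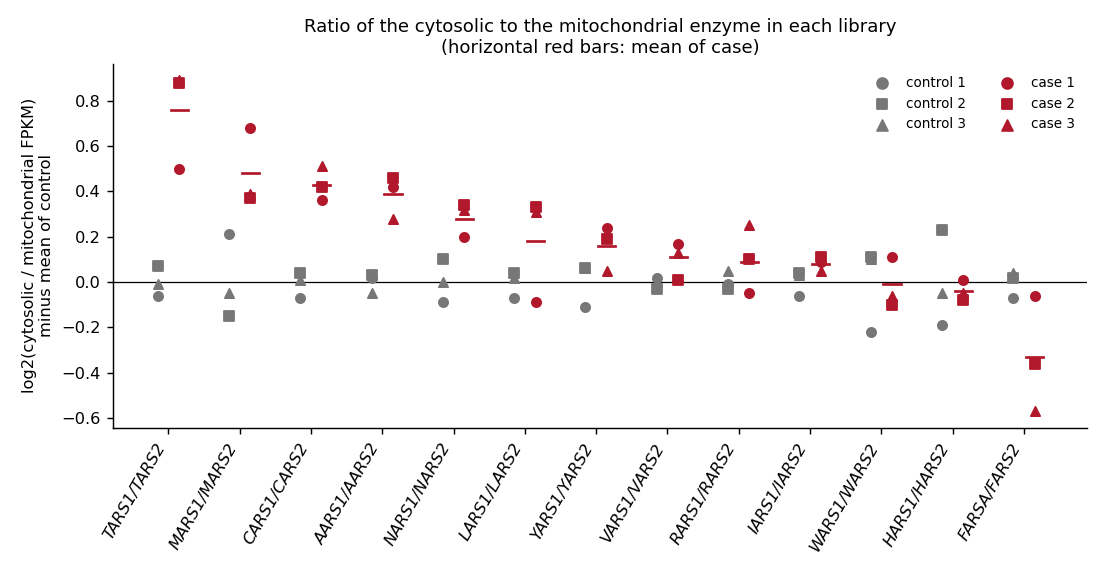
Log2 ratio of cytosolic to mitochondrial FPKM minus the mean of the control group (vertical axis) for 13 amino acid pairs, without serine, whose mitochondrial gene held 1 to 5 reads. Each point is a library, grey for control and red for case, with a symbol for each replicate number. The pairs for threonine, methionine, cysteine, alanine, asparagine, and isoleucine have all case points above all control points.

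The 3 case libraries differed among themselves in a way that followed base composition. The log2 level in case replicate 1 minus the mean of case replicates 2 and 3 was -0.49 for *EPRS1*, -0.34 for *LARS1*, and -0.31 for *NARS1*, whose transcripts have 41.4% to 42.3% GC, and 0.53 for *FARSA* and 0.34 for *VARS1*, with 61.3% and 61.7% GC. Across the 37 members this difference had a Pearson correlation of 0.85 and a Spearman correlation of 0.86 with the GC content of the canonical transcript. Across 13489 tested genes the values were 0.41 and 0.62. These are correlations across genes of the same 6 libraries, and genes are not independent replicates. The fold change itself had a Pearson correlation with GC content of -0.38 across the members and 0.04 across all genes, and with log2 transcript length of -0.45 and -0.34. The spread was also wider in the case group, with a median SD of the log2 level of 0.14 against 0.06 in the control group for the members, and 0.19 against 0.09 for all tested genes. When each library was corrected for GC content, an alternative chosen after the data had been seen, 11 members were upregulated and 6 were downregulated, and all 10 DE members kept their call. Over all genes the correction gave 1823 upregulated and 1528 downregulated DE genes. The source of the difference between case libraries was not tested.

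**Figure D4:**
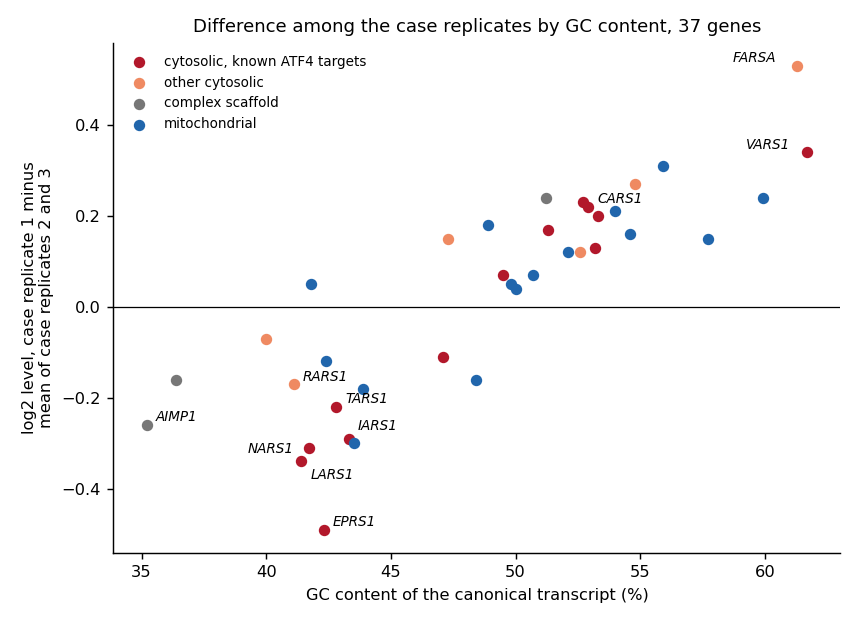
Log2 level in case replicate 1 minus the mean of case replicates 2 and 3 (vertical axis) against the GC content of the canonical transcript (horizontal axis, percent) for the 37 tested members, colored by group. The points rise from *EPRS1* at -0.49 to *FARSA* at 0.53, and the Pearson correlation is 0.85 across these genes.

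Most other genes of the ATF4 program, for amino acid synthesis, amino acid uptake, and the stress response, were upregulated in the same libraries. Of 29 such genes, all tested, 20 were upregulated DE genes in limma, beside 7.34% of all tested genes. None was a downregulated DE gene, and at an unadjusted p of at most 0.05, 1 was lower in limma and 1 in voom. The median log2 fold change was 0.56. The 9 genes that did not pass had log2 fold changes from -0.22 to 0.42. The mRNA of *ATF4* was 298.7, 284.9, and 286.6 scaled FPKM in the control group and 389.3, 343.7, and 374.9 in the case group, without overlap (log2 fold change 0.35, limma adjusted p = 0.0296). *DDIT3*, which encodes the transcription factor CHOP, was 14.3, 11.3, and 11.5 against 37.6, 33.9, and 42.6 (1.62, adjusted p = 0.00152). The lowest case value of *DDIT3* was far above the highest control value.

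*PPP1R15A*, whose product directs the dephosphorylation of eIF2, was 29.9, 29.4, and 29.7 scaled FPKM in the control group and 93.0, 77.3, and 79.7 in the case group (log2 fold change 1.48, limma adjusted p = 0.00152). *TRIB3*, a pseudokinase gene induced by ATF4 and CHOP, was 116.1, 115.3, and 108.7 against 253.4, 211.9, and 232.5 (1.03, adjusted p = 0.00197), and *ASNS*, the asparagine synthetase, was 82.5, 85.6, and 80.5 against 144.5, 140.3, and 153.4 (0.82, adjusted p = 0.00209). *STC2*, which encodes a secreted glycoprotein, had a log2 fold change of 0.75 (limma, adjusted p = 0.0043). All 4 were without overlap between the groups. TGATGNAA stood in the windows of 8 of 24 genes of this list with a window.

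Genes that work beside the synthetases were examined in the same way. Of 23 partner genes in tRNA export, processing, editing, and delivery, 22 were in the table and 21 were tested. In limma, 3 of the 21 were upregulated (14.3%) and none was downregulated, beside 7.34% and 5.84% of all tested genes. A difference between these shares was not tested. At an unadjusted p of at most 0.05, 1 partner gene was lower in limma and 1 in voom. The partner genes had a median log2 fold change of 0.12. *EEF1A1*, which brings charged tRNA to the ribosome, rose from 1049, 1037, and 977.9 to 1540, 1400, and 1550 scaled FPKM (0.55, limma adjusted p = 0.0127). *EEF1B2*, a subunit of its exchange factor, had a log2 fold change of 0.54 (limma, adjusted p = 0.0201), and *DTD1*, a D-aminoacyl-tRNA deacylase, of 0.42 (adjusted p = 0.0221). *XPOT*, the exporter of tRNA from the nucleus, was 36.0, 37.1, and 34.4 against 34.4, 45.5, and 39.9, with overlap (0.15, adjusted p = 0.369). TGATGNAA stood in none of the 19 partner genes with a window.

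**Figure D5:**
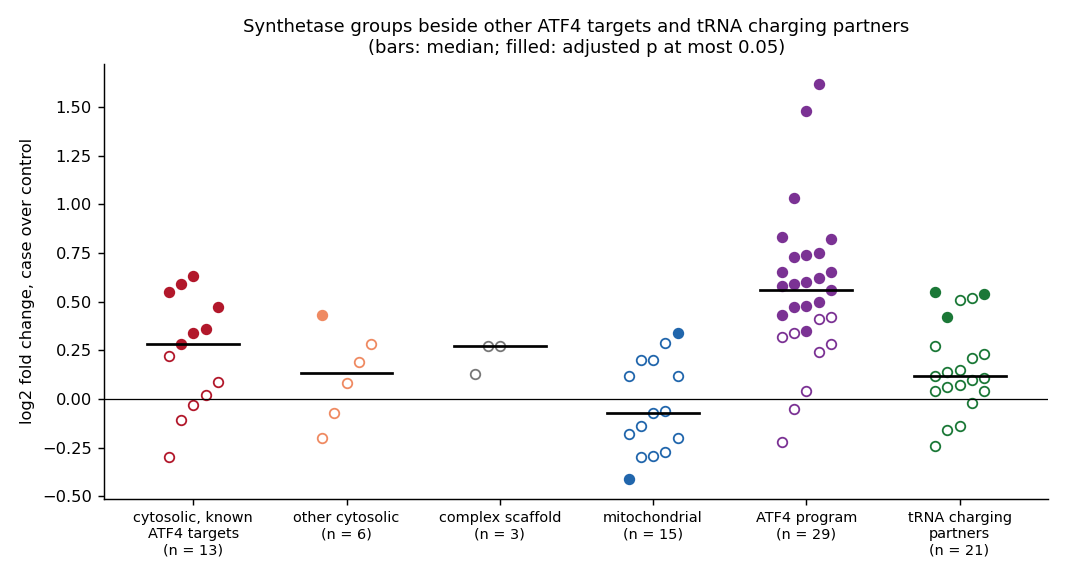
Log2 fold change of case over control (vertical axis) for the tested genes of the 4 synthetase groups, of the ATF4 program, and of the tRNA charging partners. Points are genes, filled where the adjusted p was at most 0.05, and bars are medians: 0.28, 0.14, 0.27, -0.07, 0.56, and 0.12 from left to right.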

How the data were processed

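As deposited by the authors, the values were FPKM of 29483 genes in 6 libraries. The authors filtered reads, aligned them to GRCh38.p13 with HISAT2 2.1.0, counted them on genes with HTSeq 0.6.0 and divided by gene length and library reads. RNA selection and strandedness are not given in the sources used here. FPKM was divided by median-of-ratios factors, 0.1 was added, and log2 values of the 13599 genes with a mean of at least 0.5 FPKM were tested with limma 3.58.1 (R 4.3.3) with an intensity trend, no covariates, and Benjamini-Hochberg adjustment over all of them. Whole reads were recovered for 27922 genes from the steps of the FPKM values. With them, 99.8% of genes had an implied length that was whole within 0.01 bases. These reads served for depth, for read counts per gene, and for voom, which called 1275 genes higher and 1486 lower. PCR copies were not identified, so reads are not independent molecules. Positions, overlaps, lengths, and GC content came from GENCODE 44 (GRCh38). Ratios were compared by exact permutation tests. All 38 members were named, and of the ATF4 program and the partner genes the 5 with the smallest p in each direction past the threshold, with *ATF4*, *DDIT3*, *TRIB3*, *ASNS*, and *XPOT*. The members, lists, and tests were chosen with earlier results of these data known. One marker gene is not reported here. The procedure was tested on simulated reads with the same spread in both groups and no dependence on GC content, which differs from these libraries. Alternatives were pseudocounts of 1 and 0.01, no filter, a mean of at least 1 FPKM, FPKM as deposited, TPM, quantile normalization, no trend, robust variance estimation, a block for the replicate number, voom, GC correction, ratios without the serine pair, and leaving out each library.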

Additional observations from a re-analysis of the deposited data

How the results depend on the processing

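Both the calls and the sizes depended on the settings. Among the named genes, 492 of the values under other settings kept direction and side of the threshold, 36 lost and 25 gained a call, and 11 reversed, and without 1 library the numbers were 213, 55, 9, and 5. FPKM as deposited and TPM moved the median of all genes by -0.08 and -0.20, and relative to it the ATF4 targets stayed at 0.28 in both, whereas quantile normalization lowered them to 0.17. Under TPM, genes below the threshold reversed: *AARS1* to -0.11, *HARS1* to -0.11, *IARS1* to -0.18, *FARSB* to -0.01, *AIMP1* to -0.07, *FARS2* to -0.07, *HARS2* to -0.08, and *XPOT* to -0.05. *AARS1* (-0.16) and *IARS1* (-0.12) reversed under quantile normalization, and *IARS1* with FPKM as deposited (-0.06). *EPRS1*, *LARS1*, and *IARS2* reversed without case replicate 1, and *IARS1* without control replicate 3 or case replicate 2. Over the fits without 1 library these 4 genes spanned -0.11 to 0.14, -0.19 to 0.01, -0.12 to 0.04, and -0.05 to 0.12.

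Without a filter, which raised the genes tested to 29483, 232 genes were higher and 110 lower, with 2 and 0 members, 2 ATF4 targets, 0 other cytosolic, 0 mitochondrial, 10 ATF4 program, and 0 partner genes higher, and 0 mitochondrial enzymes lower. Without the trend, 436 and 416 genes, 4 and 0 members, 4 ATF4 targets, 0 other cytosolic, and 0 mitochondrial enzymes in either direction were called. FPKM as deposited gave 662 higher genes, 6 members lower, 5 mitochondrial enzymes lower and 0 higher, and 1 lower ATF4 target, program gene, and partner gene each. TPM gave 381 and 2383 genes, 4 and 6 members, 4 and 1 ATF4 targets, 0 other cytosolic, 0 and 5 mitochondrial enzymes, 1 lower program gene, and 2 lower partner genes. Quantile normalization gave 5 and 4 members, 4 and 1 ATF4 targets, 0 other cytosolic, 3 lower mitochondrial enzymes, 1 lower program gene, and 2 lower partner genes. A mean of at least 1 FPKM gave 3 lower members, 3 of them mitochondrial. Voom gave 1486 lower genes, 3 lower members, 1 lower ATF4 target, 2 higher other cytosolic, and 2 lower mitochondrial enzymes. GC correction gave 1823 and 1528 genes, 6 lower members, 1 lower ATF4 target, 1 higher scaffold gene, 5 lower mitochondrial enzymes, 1 lower program gene, and 1 lower partner gene. The cause of these changes was not tested.

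Leaving out 1 library at a time gave 55 to 1813 higher and 14 to 1682 lower genes, 0 to 11 and 0 to 6 members, 0 to 8 and 0 to 1 ATF4 targets, 0 to 2 and 0 to 1 other cytosolic enzymes, and 0 to 1 higher scaffold genes. It gave 0 to 1 and 0 to 4 mitochondrial enzymes, 7 to 21 higher program genes, 0 to 4 and 0 to 2 partner genes, and 0 to 2 pairs lower in every case library. Leaving out the serine pair, chosen after seeing the data, kept 6 pairs higher and 0 lower. With the replicate number as a block, 848 genes were higher and 762 lower, 7 members were higher, and 0 mitochondrial enzymes were higher, since *WARS1* (adjusted p = 0.069) and *RARS2* (adjusted p = 0.0546) lost their calls in limma. The labels do not say whether the replicate numbers pair the samples. Deviations of libraries with the same number correlated at 0.063, 0.10, and -0.053, and those with different numbers at -0.182 to 0.117. With 3 libraries in each group, these correlations cannot decide whether samples were paired. The tested members held at least 82 reads in every library, and *SARS2*, with 1 to 5, was too low to compare at this depth.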
